A study of Mus musculus with 3 samples.

Results

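The proteasome genes measured here were all genes whose annotated symbol begins with Psma, Psmb, Psmc, Psmd, Psme, Psmf or Psmg followed by a digit and that were detected on at least 1 of 3 bead arrays. Of 45 such genes with a probe, 41 were detected, among 8055 named genes detected in all. The 41 genes comprised 5 immunoproteasome genes (Psmb8, Psmb9, Psmb10, Psme1 and Psme2) and 36 others, called the constitutive rest. Each array (Illumina MouseRef-8 v2) measured total RNA from 1 preparation of dendritic cells, the sentinel cells that show antigen to T cells. In every group, bone marrow of DBA mice aged 6 weeks was grown for 8 days in GM-CSF (20 ng/ml) plus IL-4 (2 ng/ml). The immature cells (imDC) had no further stimulus named in the labels. The semi-mature or tolerogenic cells (tDC) were stimulated for 4 h, with 10 ng/ml TNF-alpha together with 50 µg/ml type II collagen. The mature cells (mDC) received LPS, a bacterial lipopolysaccharide, at 1 µg/ml and the same dose of collagen for 24 h. Stimulus and hours changed together, so their parts in a difference cannot be told apart. All stimulated cells also saw collagen, which was not named for imDC.

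The proteasome is the protease that degrades ubiquitin-tagged proteins. Its barrel-shaped 20S core is built of alpha rings and beta rings, and the beta subunits encoded by Psmb5, Psmb6 and Psmb7 carry the active sites. The 19S cap, made of Psmc ATPases and Psmd subunits, recognises and unfolds the tagged proteins. Interferon induces replacement subunits (Psmb8 for Psmb5, Psmb9 for Psmb6 and Psmb10 for Psmb7) and the PA28 activator made from Psme1 and Psme2. The resulting immunoproteasome favours peptides that fit MHC class I molecules, and dendritic cells are known for carrying it alongside the constitutive form.

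The promoter windows of 5 genes that the results turn on are shown because Psmb8, Psmb9 and Psme1 stand for the inducible genes, Psmb5 for the constitutive subunit with the largest mDC difference of its class, and Psmd10 for the largest difference of any proteasome gene. They are RefSeq sequences of build GRCm38.p6, read 5′ to 3′ on the gene's strand from 250 bases before to 50 bases after the annotated start. The Psmb8 window lies at chr17:34197945-34198244 on the plus strand, and that of Psmb9 at chr17:34187281-34187580 on the minus strand, in the MHC region. The Psme1 window is chr14:55578244-55578543 on the plus strand. The Psmb5 window is chr14:54617946-54618245 on the minus strand, and that of Psmd10 is chrX:140956662-140956961 on the minus strand. Capitals mark letters that match a searched motif: the gamma-activated site in Psmb8, the core of the interferon-stimulated response element (on the minus strand of the window) in Psme1, and in Psmb5 the antioxidant response element core followed by the NF-kB core.
Psmb8: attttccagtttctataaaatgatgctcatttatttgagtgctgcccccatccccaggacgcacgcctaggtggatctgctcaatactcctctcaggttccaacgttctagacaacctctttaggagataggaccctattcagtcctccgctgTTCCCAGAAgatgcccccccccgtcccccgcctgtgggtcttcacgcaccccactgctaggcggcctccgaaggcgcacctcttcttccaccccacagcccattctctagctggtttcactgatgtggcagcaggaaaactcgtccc
Psmb9: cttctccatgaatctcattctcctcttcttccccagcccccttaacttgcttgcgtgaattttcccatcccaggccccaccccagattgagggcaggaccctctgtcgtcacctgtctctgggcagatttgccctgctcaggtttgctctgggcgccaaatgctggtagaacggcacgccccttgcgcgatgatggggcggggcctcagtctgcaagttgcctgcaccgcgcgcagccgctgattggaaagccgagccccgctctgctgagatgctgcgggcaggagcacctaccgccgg
Psme1: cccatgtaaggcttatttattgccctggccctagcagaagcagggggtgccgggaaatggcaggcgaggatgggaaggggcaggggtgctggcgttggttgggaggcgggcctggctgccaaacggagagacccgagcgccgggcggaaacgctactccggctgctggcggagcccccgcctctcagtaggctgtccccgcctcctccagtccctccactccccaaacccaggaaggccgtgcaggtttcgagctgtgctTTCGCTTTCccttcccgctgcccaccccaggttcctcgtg
Psmb5: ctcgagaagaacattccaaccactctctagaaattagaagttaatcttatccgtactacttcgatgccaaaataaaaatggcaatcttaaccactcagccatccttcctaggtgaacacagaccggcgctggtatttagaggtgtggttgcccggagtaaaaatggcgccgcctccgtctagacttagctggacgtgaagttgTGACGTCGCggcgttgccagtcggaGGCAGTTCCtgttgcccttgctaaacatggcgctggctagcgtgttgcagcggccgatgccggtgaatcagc
Psmd10: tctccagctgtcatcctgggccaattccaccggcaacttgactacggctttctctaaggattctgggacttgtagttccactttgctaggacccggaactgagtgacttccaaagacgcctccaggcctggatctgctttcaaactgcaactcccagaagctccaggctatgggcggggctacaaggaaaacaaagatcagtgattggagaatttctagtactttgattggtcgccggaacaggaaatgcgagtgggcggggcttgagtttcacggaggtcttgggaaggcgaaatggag

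Signals, given as deposited, are linear intensities, and levels are log2 values after background correction and quantile normalization of the 3 arrays together. Differences are those of log2 levels, the first-named array minus the other, and levels of different probes are not set against each other. A probe counted as detected at a detection p under 0.01, the p being the array software's comparison of a probe with negative-control beads. With 1 array per group no test was possible, and no difference has a replicate check. A gene was counted as past the threshold at a 2-fold or, more loosely, a 1.5-fold difference. The only error that could be measured was the scatter between probes of the same gene, which leaves out all variation between cultures. Over 1846 genes with several detected probes, their differences between tDC and imDC disagreed by a median of 0.13 and a 90th percentile of 0.36 on the log2 scale. The medians were 0.15 in mDC against imDC (90th percentile 0.42) and 0.13 in mDC against tDC (90th percentile 0.35).

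The arrays detected 11006 probes in imDC, 10764 in tDC and 10673 in mDC of 25697. Precision is limited by having only 3 arrays. Dendritic cell markers were present: 10 of 11 were measured, with Cd74 at signals of 47498, 49061 and 32324 on imDC, tDC and mDC, and Flt3 was not detected on any array. Their summed signal was 103567, 111886 and 82667 in the same order. In mDC against imDC, 6 of the 10 were lower (median log2 difference -0.48), as were 4005 of all 7973 genes. Cd209a, among these 6, was detected on imDC alone, so its direction was set by the filter. The 10 neutrophil markers were all detected on each array, with summed signals of 66346, 123080 and 144644. All 10 were higher in tDC than in imDC (median 1.00) and 9 in mDC (median 0.93), against 48.9% and 48.2% of all genes. Between tDC and mDC 7 of 10 were lower in mDC (median -0.13), as were 4091 of all 7831 genes. Lcn2 alone, at 5145, 26482 and 65567, carried the larger mDC sum. Summed signals of mast cell and basophil markers (7 of 8 measured) were 5288, 13244 and 33572. All 7 were higher in mDC than in imDC, against 48.2% of all genes. Ms4a2 was measured only through mDC, so its direction was set by the filter. Hdc alone, at 1367, 7421 and 26092, made up most of the tDC and mDC sums. Macrophage and monocyte markers (7 of 9 measured) summed to 20734, 17764 and 29718 but moved in opposite directions. In mDC against imDC, 4 of the 7 were over 2-fold lower (Mrc1, Mertk, C1qb and C1qc), against 5.96% of all genes. C1qc was detected on imDC alone, so its direction was set by the filter. Adgre1 and Ly6c1 were over 2-fold higher, against 6.16% of all genes, and carried the sum. The median of the list was -1.73. T and NK cell markers (3 of 5 measured) summed to 389, 477 and 578. Only Nkg7 of them was detected on imDC and tDC, so those 2 sums include undetected probes. Cd3e and Cd3g counted as measured only through mDC. B cell and erythroid markers (1 of 4 measured in each list) were detected on the mDC array alone, and counted as measured only through it. The part of other cell types in the differences below was not tested. In such bulk RNA, fewer cells of a type and less RNA per cell cannot be told apart.

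All 5 immunoproteasome genes had a higher level in mDC than imDC, by 1.42- to 1.81-fold, while the 3 catalytic members differed from imDC in tDC by -0.38 to 0.04 on the log2 scale. Their median log2 difference was 0.71 in mDC against imDC, 0.04 in tDC against imDC and 0.47 in mDC against tDC. For the constitutive rest the medians were 0.18, 0.16 and 0.01, and for all genes they were -0.00, 0.00 and -0.02. Both comparisons with imDC use the same imDC array. All 5 immunoproteasome genes had their highest level on the mDC array, as did 17 of the 36 others. The share of all genes highest on mDC is not given here, so these counts only describe the proteasome genes.

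Psmb8, which encodes the inducible subunit that takes the place of Psmb5, had signals of 789 in imDC, 708 in tDC and 1218 in mDC. Only the mDC array stood high. Its log2 difference was 0.85 in mDC against imDC (1.81-fold) and 0.92 in mDC against tDC (1.89-fold), against -0.06 in tDC compared with imDC. Psmd10 alone among the 36 others had a larger difference than Psmb8 in mDC against imDC, and none did in mDC against tDC. Of all genes, 7.45% and 3.9% did.

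Psmb9, the inducible counterpart of Psmb6, had signals of 6224, 4884 and 10343 in imDC, tDC and mDC. The tDC array was the lowest and the mDC array the highest. It was 1.63-fold higher in mDC than in imDC (log2 difference 0.71) and 1.30-fold lower in tDC than in imDC (log2 difference -0.38). The tDC difference was lower than that of 35 of the 36 constitutive genes and just past the 90th percentile of the scatter between probes. Of all genes, 84.4% had a higher tDC difference. From tDC to mDC Psmb9 was 2.12-fold higher (log2 difference 1.09), the only proteasome gene past 2-fold in that comparison and above all 36 others. There 2.91% of all genes had a larger difference. Psmb9 has 1 detected probe, so its value could not be set against another probe of the gene.

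Psmb10, which replaces Psmb7, gave signals of 4598, 4798 and 6458 in imDC, tDC and mDC at its brighter probe. Its imDC and tDC levels were nearly the same, and mDC stood above both. The log2 differences were 0.04 in tDC against imDC, 0.51 in mDC against imDC and 0.47 in mDC against tDC. Its other probe, at signals of 3573, 4022 and 5598, gave 0.17, 0.71 and 0.54, so both probes put mDC highest.

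Both PA28 activator genes were higher in tDC as well as in mDC. Psme1, which encodes the alpha subunit, had signals of 9228, 11822 and 13107 in imDC, tDC and mDC, a stepwise order. Its log2 differences from imDC were 0.34 in tDC and 0.50 in mDC. The other Psme1 probe, at 5573, 6291 and 8027, gave 0.16 and 0.54, so its probes gave tDC differences of unequal size. Psme2, which encodes the beta subunit, had signals of 326, 370 and 425, with differences of 0.40 in tDC and 0.75 in mDC against imDC. The Psme2 probe may also bind transcripts of the closely related Psme2b. The median of the pair was 0.37 in tDC and 0.63 in mDC against imDC, and for the 3 catalytic genes it was -0.06 and 0.71.

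**Figure D1:**
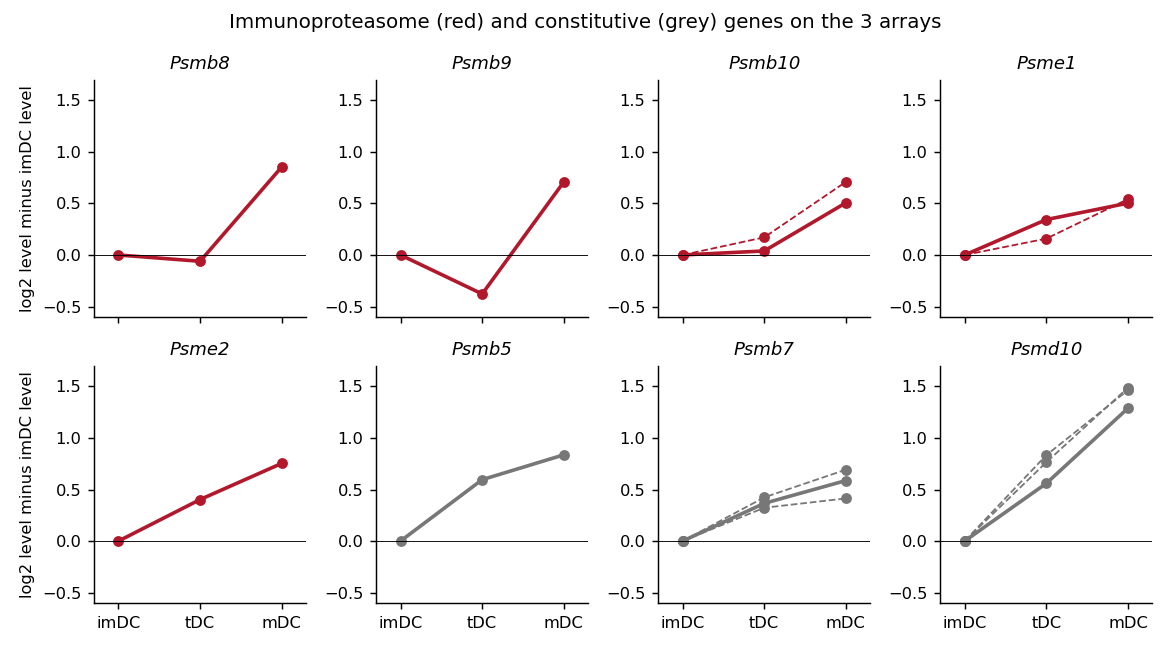
Levels of the 5 immunoproteasome genes (red) and of selected constitutive genes (grey) on the imDC, tDC and mDC arrays, as log2 level minus that on the imDC array, 1 array per group and so no error bars. Solid lines are the probe that stands for the gene and dashed lines its other detected probes. Psmb8 and Psmb9 are lowest on tDC and highest on mDC, while Psme1, Psme2, Psmb5, Psmb7 and Psmd10 step upward from imDC to tDC to mDC.

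Of the active-site subunits that these genes replace, Psmb5 and Psmb7 were also higher in both stimulated preparations. Psmb5, which encodes the chymotrypsin-like subunit, had signals of 577, 766 and 856 in imDC, tDC and mDC. Both stimulated arrays stood above imDC, and mDC was the highest. Its log2 differences from imDC were 0.60 in tDC (1.51-fold) and 0.84 in mDC (1.79-fold). Psmb7, which encodes the trypsin-like subunit, had signals of 2864, 3625 and 4069, with differences of 0.37 in tDC and 0.59 in mDC. Its other 2 probes gave 0.42 and 0.32 in tDC, and 0.69 and 0.41 in mDC, all above imDC. Psmb6, which encodes the caspase-like subunit, was not detected on any array (lowest detection p 0.0363), so the pair Psmb9 and Psmb6 could not be compared.

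Set against the gene it replaces, Psmb8 differed from imDC in mDC by about as much as Psmb5: the log2 difference of Psmb8 minus that of Psmb5 was 0.02. In tDC the same quantity was -0.66, Psmb5 being higher than in imDC and Psmb8 not. From tDC to mDC it was 0.67. For Psmb10 minus Psmb7 the values were -0.08 in mDC and -0.33 in tDC, both against imDC, and 0.25 in mDC against tDC. In mDC against imDC the values of both pairs lie within the usual scatter between probes. The value for Psmb8 and Psmb5 lies beyond its 90th percentile in tDC against imDC. It also does in mDC against tDC, where that percentile is 0.35 and the value for Psmb10 and Psmb7 lies inside it.

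Counted by fold, few proteasome genes reached a threshold. In tDC against imDC, 0 of 41 differed by 2-fold in either direction, against 2.88% of all 7884 genes higher and 2.02% lower. At 1.5-fold, 2 were higher, Psmb5 and Psmd11, and 0 lower, against 7.61% and 7.79% of all genes. Neither was past 1.5-fold without background correction or with the authors' processed values, where 0 of the 41 were. Psmd10 was below 1.5-fold at its brightest probe (0.56), while its dimmer probes, at 0.76 and 0.83, were past it. Small positive differences were widespread, however: 35 of 41 (85.4%) had a difference above 0, against 48.9% of all genes. They comprised 32 of the 36 constitutive genes and 3 of the 5 immunoproteasome genes.

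In mDC against imDC, 1 of 41 was 2-fold higher, Psmd10, and 0 were lower, against 6.16% and 5.96% of all 7973 genes. At 1.5-fold, 7 (17.1%) were higher, against 12.4% of all genes: Psmb8, Psmb9, Psme2, Psmb5, Psmb7, Psmd10 and Psmd11. None of the 41 was 1.5-fold lower, against 13.3% of all genes. Above 0 were 34 of 41 (82.9%), against 48.2% of all genes, which included all 5 immunoproteasome genes and 29 of the 36 others. Between mDC and tDC, 1 gene was 2-fold higher, Psmb9, and 0 lower, against 3.44% and 2.8% of all 7831 genes. At 1.5-fold, 3 (7.32%) were higher, Psmb8, Psmb9 and Psmd10, near the 7.59% of all genes, and 0 were lower, against 8.17%. In that comparison 24 of 41 (58.5%) were above 0, against 47.3% of all genes, with 5 of 5 immunoproteasome genes and 19 of 36 others.

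**Figure D2:**
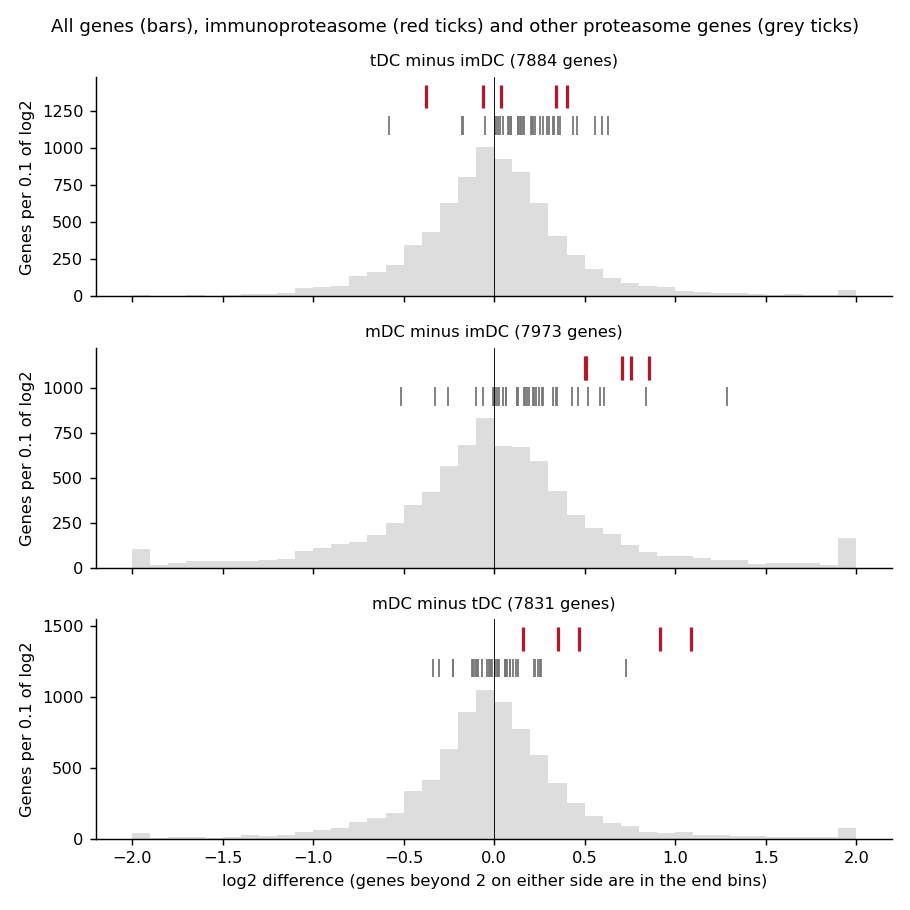
Histograms of the log2 difference of all detected genes in the 3 comparisons (bars, genes per 0.1 of log2), with ticks for the 5 immunoproteasome genes (red) and the other proteasome genes (grey). The grey ticks gather just right of 0 in both comparisons with imDC and around 0 in mDC against tDC, where the red ticks lie to the right.

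Among the structural subunits of the 20S core the differences were small. The 5 detected alpha subunits had a median log2 difference of 0.21 in tDC and 0.17 in mDC against imDC. Psma5 was the highest of them in both, with signals of 14015, 17213 and 19750 in imDC, tDC and mDC and differences of 0.27 and 0.52. Psma2 followed in mDC at 0.43, Psma7 stood at 0.26 in tDC and 0.17 in mDC, and Psma3 and Psma4 stayed at 0.13 or less in both. Psma1 (lowest detection p 0.716) and Psma6 (0.112) were not detected. The 4 non-catalytic beta subunits, Psmb1 to Psmb4, ranged from 0.01 to 0.13 in tDC and from -0.06 to 0.22 in mDC, with Psmb1 lowest and Psmb4 highest each time. The values of these 4 beta subunits lie inside the 90th percentile of the scatter between probes of a gene.

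The 19S cap showed the same small upward displacement. Its 5 detected ATPases, the motor subunits that unfold substrates, were all higher than imDC in both preparations, with medians of 0.21 in tDC and 0.22 in mDC. Psmc4 was the highest of them, with signals of 6690, 8430 and 9255 and differences of 0.33 and 0.46, and Psmc3 the lowest, at 0.08 and 0.06. Psmc6 was not detected (lowest detection p 0.0702). From tDC to mDC the ATPases had a median of 0.00, and the 10 non-ATPase subunits one of -0.00. Those 10 had medians of 0.18 in tDC and 0.20 in mDC against imDC.

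Psmd11, a scaffold subunit of the cap's lid, was the highest non-ATPase, with signals of 577, 785 and 736 in imDC, tDC and mDC. Both stimulated arrays stood above imDC by similar amounts, with differences of 0.63 (1.55-fold) and 0.61 (1.52-fold). A dimmer Psmd11 probe at 154, 149 and 193 was detected on mDC alone. Between imDC and tDC, both undetected, it was lower in tDC in signal but 0.11 higher in log2 level. Psmd1, a large scaffold of the cap's base, was higher in tDC (0.46) than in mDC (0.23). Psmd14, the deubiquitinase of the lid, had 0.16 and 0.26, and the ubiquitin receptor Psmd4 had 0.21 and 0.27. Psmd2, the other large base scaffold, went the other way, with signals of 207, 151 and 166. It was not detected in tDC, so its difference there is a bound of -0.58 or lower, and in mDC against imDC it was -0.33. Psmd13 was near 0 in both, at -0.05 and 0.02.

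**Figure D3:**
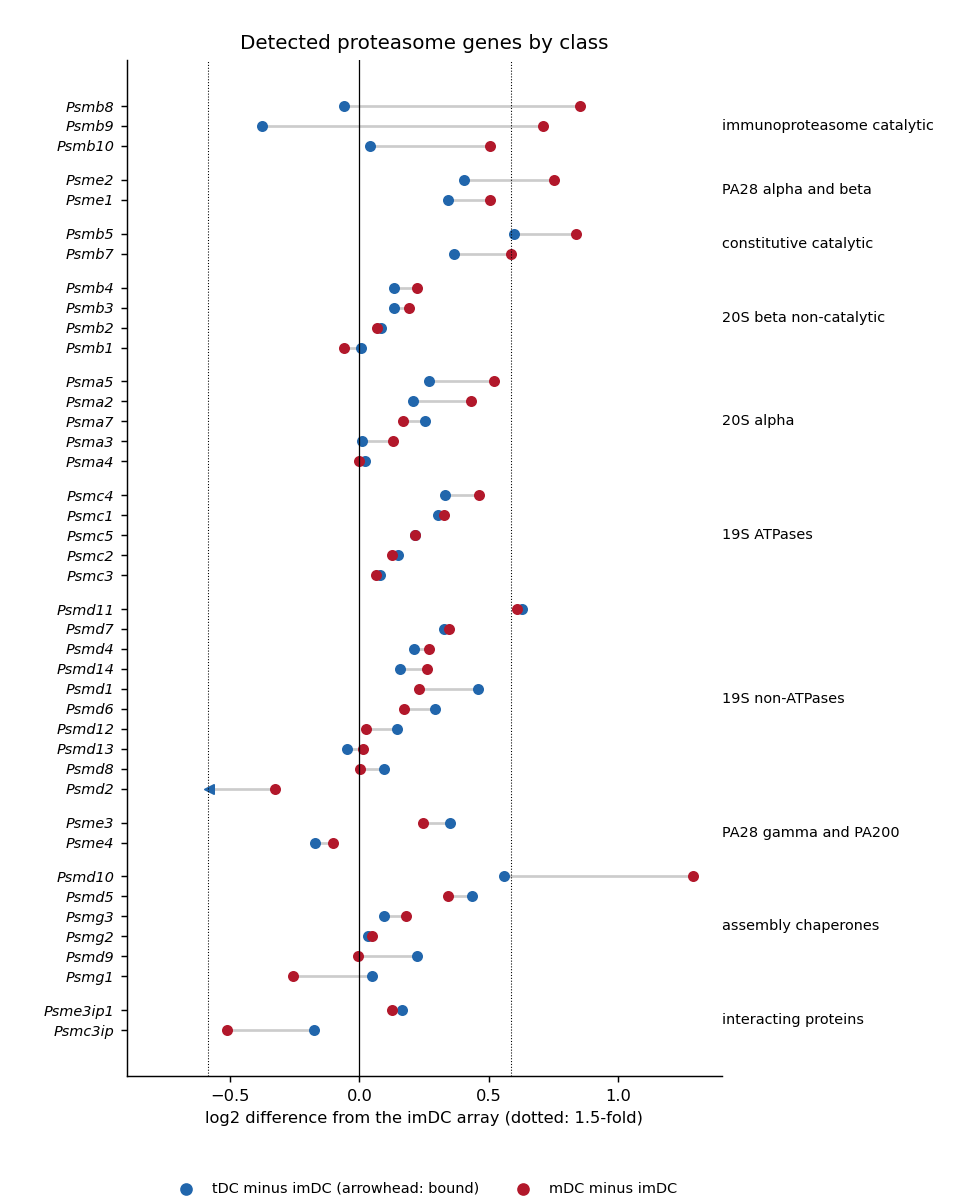
Log2 difference from the imDC array for each of the 41 detected proteasome genes, grouped by role, in tDC (blue) and mDC (red), with dotted lines at 1.5-fold and an arrowhead for a bound. Most points lie between 0 and 0.5, Psmd10 lies farthest right, and the inducible catalytic genes are red to the right with blue near or below 0.

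Psmd10 had the largest difference of any proteasome gene in mDC against imDC. It encodes gankyrin, an ankyrin-repeat chaperone that binds the ATPase Psmc4 during assembly of the 19S base and leaves the finished particle, and it is not a subunit of that particle. Its signals were 3578 in imDC, 5289 in tDC and 8577 in mDC, a stepwise order with no array close to another. The log2 differences were 0.56 in tDC against imDC (1.47-fold), 1.29 in mDC against imDC (2.44-fold) and 0.73 in mDC against tDC (1.66-fold). Its 2 dimmer probes, at 1406, 2231 and 3518 and at 706, 1112 and 1610, gave 1.49 and 1.46 in mDC against imDC, and 0.76 and 0.83 in tDC. All 3 probes thus placed the arrays in the same order, and the brightest gave the smallest difference from imDC in each.

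The other 5 assembly chaperones had smaller differences in mDC against imDC, from -0.26 to 0.34. Psmd5, which also binds base ATPases, had differences of 0.43 in tDC and 0.34 in mDC. Psmd9 had 0.22 and -0.01 at its brighter probe and -0.10 and 0.35 at its dimmer probe, so its probes disagreed on direction. Psmg1, Psmg2 and Psmg3, which help build the alpha ring, had 0.05, 0.03 and 0.09 in tDC, and -0.26, 0.05 and 0.18 in mDC. Psmg1 was lowest in mDC, with signals of 854, 822 and 651. Of the alternative activators, Psme3, which encodes nuclear PA28 gamma, had 0.35 in tDC and 0.25 in mDC, and its tDC value was close to that of Psme1. Psme4, which encodes PA200, had -0.17 and -0.10. Psme3ip1 and Psmc3ip match the symbol rule but encode proteins that are not proteasome subunits, a partner of PA28 gamma and a cofactor of meiotic recombination. Psmc3ip was lower in both, with signals of 427, 358 and 288 and differences of -0.18 and -0.51, and Psme3ip1 had 0.17 and 0.13.

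By the order of the 3 arrays, 16 of the 36 constitutive genes were lowest in imDC and highest in mDC, and 12 were lowest in imDC and highest in tDC. Shares of all genes with these orders are not given here. Of the 5 immunoproteasome genes, 3 (Psmb10, Psme1 and Psme2) were lowest in imDC and 2 (Psmb8 and Psmb9) were lowest in tDC. The difference between the immunoproteasome median and the constitutive median was -0.12 in tDC against imDC, 0.53 in mDC against imDC and 0.46 in mDC against tDC. With the 3 inducible catalytic genes set only against Psmb5 and Psmb7, it was -0.54, -0.00 and 0.68. In mDC against imDC the 5 genes thus exceeded the whole constitutive rest, while the 3 catalytic genes did not exceed Psmb5 and Psmb7. The latter contrast leaves out Psme1 and Psme2. It also lacks Psmb6, the undetected counterpart of Psmb9, so Psmb9 entered it without its partner.

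**Figure D4:**
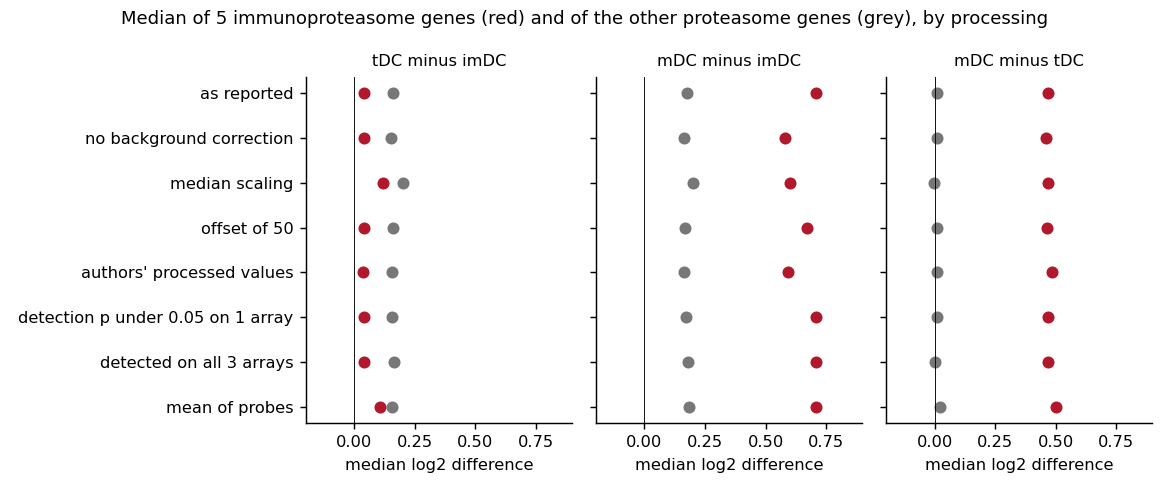
Median log2 difference of the 5 immunoproteasome genes (red) and of the other proteasome genes (grey) under each way of processing the arrays, in the 3 comparisons. Across the settings the red median stays between 0.58 and 0.71 in mDC against imDC and between 0.04 and 0.12 in tDC against imDC, and the grey median between 0.15 and 0.20 in both.

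Other genes of the proteasome pathway, taken from a list of 26 of which 14 were measured, showed no 1.5-fold difference in any comparison. Their medians were 0.12 in tDC against imDC, -0.01 in mDC against imDC and -0.14 in mDC against tDC. Above 0 were 13, 6 and 3 of 14, against 48.9%, 48.2% and 47.3% of all genes. In the same order, 7.61%, 12.4% and 7.59% of all genes were 1.5-fold higher and 7.79%, 13.3% and 8.17% lower. Pomp, the chaperone that matures the beta rings, had signals of 10013, 10658 and 15042 in imDC, tDC and mDC. Like Psmb10 it stood apart on the mDC array alone, with differences of 0.06, 0.56 and 0.49 in the 3 comparisons. Nfe2l1, the transcription factor that restores proteasome subunit expression when the proteasome is inhibited, had signals of 5311, 5929 and 4959 and differences of 0.13, -0.08 and -0.21.

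Genes that load proteasome products on MHC class I were measured beside the immunoproteasome. Of a list of 14, 11 were measured, 10 of them with a value in tDC against imDC. Medians were 0.00 in tDC against imDC, 0.45 in mDC against imDC and 0.20 in mDC against tDC. In that order, 1, 5 and 4 were 1.5-fold higher, against 7.61%, 12.4% and 7.59% of all genes. Below imDC in both stimulated preparations were Pdia3 (-0.28 in tDC and -0.51 in mDC) and Calr (-0.19 and -0.33), chaperones of class I assembly that were named after their values were seen. Tap1, a subunit of the peptide transporter and the neighbour of Psmb9 with which it shares a promoter region, had signals of 973, 802 and 1638. It was lowest in tDC and highest in mDC, as Psmb9 was, with differences of -0.20, 0.96 and 1.16. Tap2, the partner subunit, had -0.07, 0.69 and 0.76. Nlrc5, a transactivator of class I genes, had signals of 816, 549 and 1777 and differences of -0.54, 1.36 and 1.90. Tapbpl, a peptide editor, was already higher in tDC at 0.78 and reached 1.28 in mDC against imDC.

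In the list of interferon genes and factors, 6 of 8 were measured. All 6 were at least 1.5-fold higher in mDC than in both other preparations. Ifng is among them only through its detection on mDC, so its direction was set by the filter. In tDC against imDC, where Ifng has no value, 0 of 5 were 1.5-fold higher. The shares of all genes were 12.4% in mDC against imDC, 7.59% in mDC against tDC and 7.61% in tDC against imDC. Their median differences were 0.13 in tDC against imDC, 1.34 in mDC against imDC and 1.44 in mDC against tDC. Irf1, a transcription factor that binds immunoproteasome promoters, had signals of 4240, 5541 and 9567 and differences of 0.36, 1.16 and 0.80. Stat2 had signals of 629, 571 and 1456 and differences of -0.04, 1.51 and 1.55. Irf7, a factor of the type I interferon response, was 26.1-fold higher in mDC than in imDC, at 266, 261 and 4323. Ifng was detected on mDC alone, at least 3.58-fold above imDC.

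The promoter windows were searched on both strands for 4 motifs in 35 of the 41 genes, all 5 immunoproteasome genes among them. The interferon-stimulated response element core, GAAANNGAA, occurred in 6 of 35 (17.1%), against 9.76% of 27025 genes with a window. They were Psmb3, Psmb4, Psmc2, Psmd4, Psmd9 and Psme1, the last at base 10 after the start, on the minus strand, and thus 1 immunoproteasome gene and 5 others. The gamma-activated site, TTCNNNGAA, which reads the same on both strands, occurred in 3 (8.57%; Psmb8, Psmd2 and Psmg1), against 9.55%. The Psmb8 match begins 97 bases before the start, at -97. The antioxidant response element core, TGACNNNGC, occurred in 4 (11.4%), against 14.0%, and one of them was in Psmb5, at -47. The NF-kB core, GGNNNTTCC, occurred in 13 (37.1%), against 20.7%: in 0 of 5 immunoproteasome genes and 13 of the 30 others with a window. The windows of Psmb9, Psmb10, Psme2 and Psmd10 held none of the 4. A match is only a run of letters, not a bound site, and no match says only that these letters are not in this window.

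**Figure D5:**
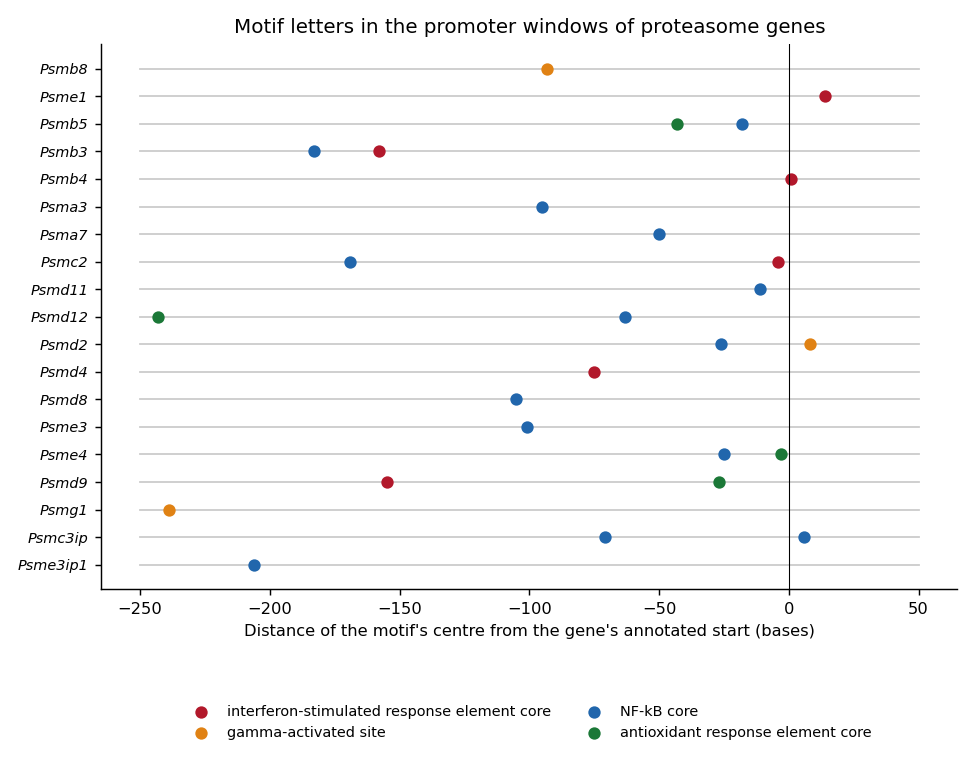
Position of the motif matches in the promoter windows of proteasome genes that hold any, as the distance of the motif's centre from the annotated start in bases, with a colour for each motif. The Psmb8 match to the gamma-activated site and the Psme1 match to the interferon-stimulated response element core are the only matches among immunoproteasome genes.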

How the data were processed

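Total RNA (550 ng per array) was labelled and hybridised to 1 array per group, and groups came from the labels. The deposited table gave each probe's average signal, a linear intensity, and a detection p-value, per the file headers. The authors' processed table was deposited as log2 values, as its comparison with the signals showed; each of its columns had a median of 6.98. The submitters' processing notes name GenomeStudio 2011.1. Signals ran from 63.8 to 65567, so the brightest genes can be understated.

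Signals were background corrected from the detection p-values with an offset of 16, quantile normalized and expressed as log2 (neqc, limma 3.58.1, R 4.3.3). Probes with a detection p under 0.01 on at least 1 array were kept (11556 of 25697). The platform annotation named 23978 probes, of which 23962 were in the RefSeq table of GRCm38.p6, and 1719 are unnamed here. The brightest kept probe stood for a gene. Of the 41 proteasome genes, 14 had several kept probes. Where only 1 array of a pair detected a gene, the difference is a bound: the undetected side was set at its own value or that array's lowest detected level, whichever was higher. No test was made, because each group had 1 array. Calculations were tested on simulated data. The members and lists were chosen with earlier results of these data known. Every proteasome gene could be named. From the other lists were taken Pomp, Tap1, Irf1, Nfe2l1 and genes past 1.5-fold, at most 6 a list and comparison by size. Psmd3, Psmb11, Psma8, Psmf1 and Psmg4 were not analysed here. Alternatives were no background correction, median scaling, an offset of 50, the authors' values, detection p under 0.05 on 1 array or under 0.01 on all 3, the mean of probes, the 1.5-fold threshold and smaller gene sets.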

Additional observations from a re-analysis of the deposited data

How the results depend on the processing

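No paired analysis was possible because each group had 1 array. The medians of the immunoproteasome genes and of the constitutive rest moved little with the processing: 0.58 to 0.71 and 0.16 to 0.20 in mDC against imDC, 0.46 to 0.50 and -0.00 to 0.02 in mDC against tDC, and 0.04 to 0.12 and 0.15 to 0.20 in tDC against imDC. The gap between the sets did change when the 3 inducible catalytic genes were set only against Psmb5 and Psmb7, Psmb6 being undetected. It was then -0.0031 in mDC against imDC, 0.68 in mDC against tDC and -0.54 in tDC against imDC. That alternative changed both sets. Counts of proteasome genes depended on the threshold: at 1.5-fold in place of 2-fold, 7 were higher in mDC against imDC, 3 in mDC against tDC and 2 in tDC against imDC. Without background correction 4 of 41 were 1.5-fold higher in mDC against imDC, close to the share of all genes (748 of 7973). Over all settings 4 to 9 were, while 748 to 1082 of all genes were. In tDC against imDC, 0 were 1.5-fold higher without background correction and 0 with the authors' values. With median scaling 1 was (Psmd10) and with an offset of 50 also 1 (Psmd11), so Psmb5 and Psmd11 sit at that threshold. Of all genes, 409, 419, 543 and 500 were 1.5-fold higher under these settings, in the same order. Median scaling put 1 gene 1.5-fold lower in tDC (Psmd2) and 1 in mDC (Psmc3ip), both against imDC, and a detection p under 0.05 put 1 lower in tDC (Psmd2, -0.68). The cause of these shifts was not tested. Psmd9 and Psmd11 moved with the mean of probes, Psmd11 to 0.37 in tDC against imDC and to 0.39 in mDC against tDC, and Psmd9 to 0.06 and 0.11. Psme4 moved to -0.34 in tDC against imDC. Psmd10 in that comparison ranged from 0.55 to 0.72 over the settings, so whether it passed 1.5-fold depended on the setting. Psmd2 in tDC against imDC was -0.30 without background correction and -0.29 with the authors' values. No log2 difference that passed 1.5-fold changed sign. Over all genes, 227 were 2-fold higher and 159 lower in tDC against imDC, against 148 and 79 without background correction and 155 and 85 with the authors' values. In mDC against tDC, 219 were 2-fold lower, against 132 and 136. Signal over background limits Psmd2, Psmd6 and Psmd9, which were close to background.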
